A study of Mus musculus with 10 samples.

Results

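The genes described here are Ptpn6, which encodes the tyrosine phosphatase SHP-1, and 9 cell surface receptors grouped by name as inhibitory. The receptors are Cd22, Cd33, Siglece, Lilrb4a, Pilra, Lair1, Sirpa, Cd300lf and Cd72. These 10 genes were taken by their mouse symbols from the 56884 gene identifiers in the count table, and all 10 were among the 17622 genes with enough counts to be tested. They were measured by bulk RNA-seq in the hippocampus of 10 female P301S mice, 5 per group. All 10 animals carried the PS19 transgene (hTau), in which the mouse prion protein promoter drives human Tau with the P301S mutation, on a mixed B6;C3 background. Their ovaries were intact. At 6 months of age, 5 females received a subcutaneous implant holding 10 mm of DHT (dihydrotestosterone, an androgen that aromatase cannot turn into estrogen), and the other 5 received an empty implant and are called void-treated. Tissue was taken after 12 weeks, at 9 to 9.5 months. No mice without the transgene and no males were sequenced, so the comparison concerns DHT within this tauopathy model.

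An immunoreceptor tyrosine-based inhibitory motif (ITIM) is a short stretch of the cytoplasmic tail built around a tyrosine. When a ligand engages the receptor, kinases of the Src family phosphorylate that tyrosine, and phosphatases with SH2 domains, chiefly SHP-1, dock on it and remove phosphate from proteins of nearby activating pathways. In microglia such receptors act against receptors that signal through TYROBP (DAP12) and SYK, TREM2 among them. Siglecs read sialic acid on neighbouring cells, SIRPA reads CD47, LAIR1 reads collagens and C1q, and CD300LF reads phosphatidylserine.

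The motif was read from the coding sequences, because the group is named for it, although the search below did not find it in Cd33. A script searched the longest complete GENCODE M21 coding sequence of each gene for 6 codons that read isoleucine, leucine, valine or serine, any residue, tyrosine, any 2 residues, then leucine, valine or isoleucine, on the cytoplasmic side of the most hydrophobic window of 19 codons. The runs are given below 5′ to 3′ as the coding strand, with the tyrosine codon in capitals.
Cd22, tyrosine codon 783: gttagtTATgccatcttg
Cd22, tyrosine codon 817: gtcactTACtcggtgata
Cd22, tyrosine codon 843: atccatTACtcagagctg
Cd22, tyrosine codon 863: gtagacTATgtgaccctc
Siglece, tyrosine codon 432: atacatTATgcgaccctc
Lilrb4a, tyrosine codon 300: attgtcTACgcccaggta
Lilrb4a, tyrosine codon 322: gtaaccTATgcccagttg
Pilra, tyrosine codon 267: atcgtgTATgcttccatc
Lair1, tyrosine codon 228: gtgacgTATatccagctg
Lair1, tyrosine codon 257: agcacaTATgcagccatc
Sirpa, tyrosine codon 440: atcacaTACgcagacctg
Sirpa, tyrosine codon 481: ctcaccTATgctgacctg
Sirpa, tyrosine codon 505: tcagagTATgctagtgtc
Cd300lf, tyrosine codon 241: ctctgtTATgcagacctg
Cd300lf, tyrosine codon 289: gtttcaTATgccgctctg
Cd72, tyrosine codon 7: atcacgTATgcagacctg
Cd72, tyrosine codon 39: ctcaccTACgagaatgtg

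Cd22 held 4 such runs, Sirpa 3, and Lilrb4a, Lair1, Cd300lf and Cd72 2 each, while Siglece and Pilra held 1. In Cd72 the runs precede the hydrophobic window, because the protein is anchored with its amino end in the cytoplasm. Cd33 held 0 runs in the coding sequence searched, although human CD33 is an ITIM receptor. The mouse protein is known to differ from the human one in its tail. SHP-1 itself is cytosolic and was not searched.

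**Figure D1:**
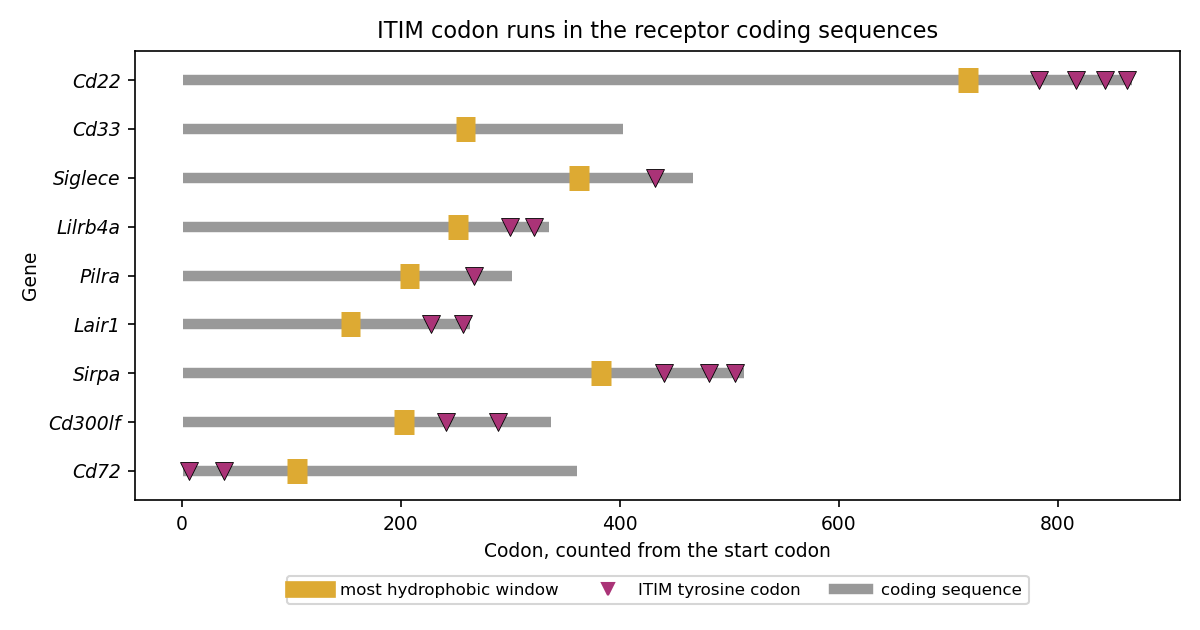
Position of the ITIM codon runs (triangles, tyrosine codon) along the coding sequence of each receptor gene, in codons from the start codon, with the most hydrophobic 19-codon window as a yellow block. The runs of Cd72, at codons 7 and 39, lie before that window, those of the other receptors lie after it, and Cd33 has none.

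Of the 10 genes, 6 were higher in DHT-treated females and 0 were lower (edgeR's quasi-likelihood test, Benjamini-Hochberg adjusted p under 0.05). Over all genes tested, 5.22% were higher and 0.261% were lower by the same rule. The 6 were Ptpn6, Cd22, Cd33, Lilrb4a, Lair1 and Cd72. Siglece, Pilra, Cd300lf and Sirpa did not pass. With a log2 fold change beyond 1 also required, 4 of the 10 were higher (Ptpn6, Cd22, Lilrb4a and Cd72) and 0 lower, against 2.17% and 0.0227% of all genes. The filter asks for enough counts in 5 libraries, and among these 4 genes only Ptpn6 reached that level in all 5 void libraries, against 4 for Cd72, 2 for Cd22 and 0 for Lilrb4a. The last 3 thus needed their DHT libraries to be tested, as did Pilra and Cd300lf, so the counts over the 10 genes are a description. The median log2 fold change of the 10 genes was 1.05, and that of all genes tested was 0.01. In 8 of the 10 genes every DHT-treated mouse lay above every void-treated mouse, against 5.39% of all genes tested. Sirpa and Cd300lf were the exceptions.

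These values are from whole hippocampus, where fewer cells of a type and less RNA per cell cannot be told apart. They came from libraries of 27188854 to 47113661 counts, and the sample numbers of the void-treated mice (4 to 11) all come before those of the treated mice (18 to 23), and that order cannot be told apart from treatment. Choroid plexus markers, summed over 12 genes, spanned 113 to 1837 CPM (counts scaled to a common library size after TMM normalization) in void-treated and 2077 to 2941 CPM in DHT-treated mice, and 5 of the 12 were higher with DHT. With the mean log2 CPM of these 12 choroid plexus genes as a covariate, 0 of the 10 genes and 0 of all genes passed the adjusted threshold. The unadjusted p in that fit was under 0.05 for 6 of the 10 genes, against 6.6% of all genes, and the fitted difference was above 0 for 8 of them. Those 6 were Ptpn6, Cd22, Cd33, Lilrb4a, Lair1 and Cd72, with unadjusted p between 0.00237 and 0.0135. The part of choroid plexus tissue in each result was not tested beyond that fit. With DHT replicates 1 and 3 both left out, an alternative added after the data were seen, Ptpn6 alone of the 10 genes passed (log2 fold change 0.996, adjusted p = 0.0369, edgeR), and 0.348% of all genes were higher. The adjusted p of the other 5 that had passed lay between 0.0792 (Cd22) and 0.271 (Cd33).

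**Figure D2:**
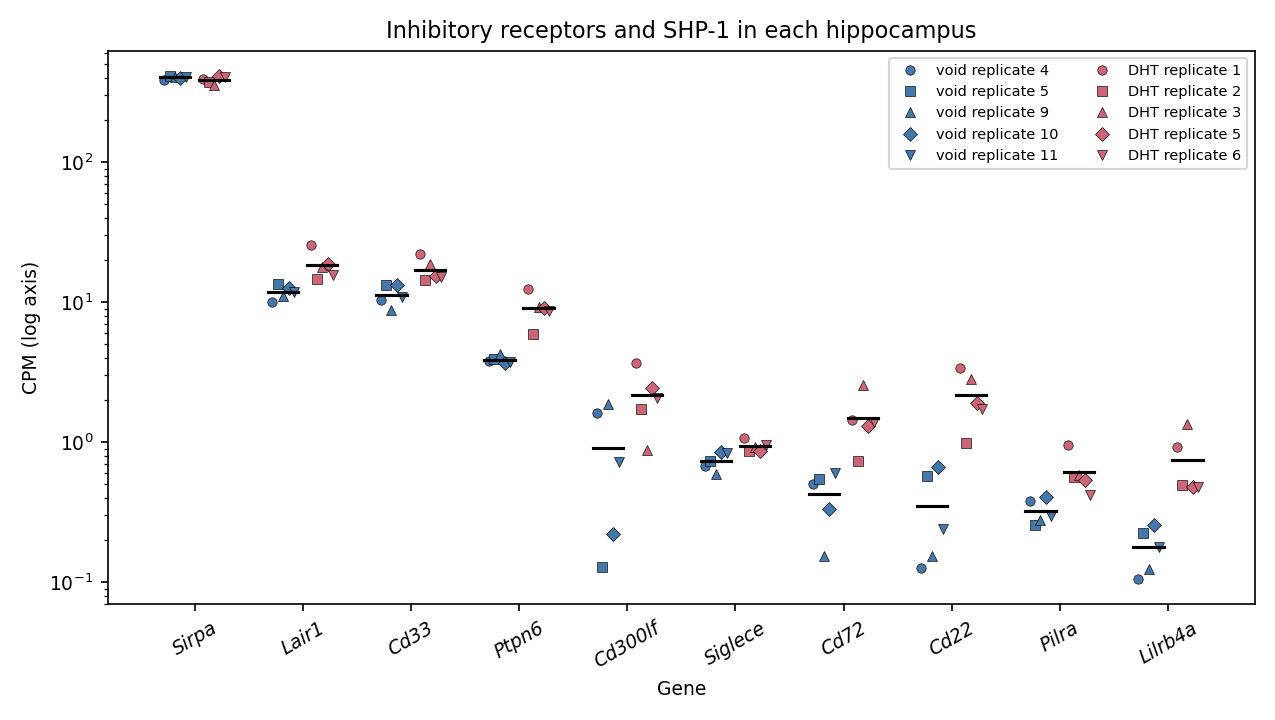
CPM on a log axis (y) of each gene (x) in every mouse, void-treated in blue and DHT-treated in red, with 1 symbol per mouse and a black bar at the group mean. Ptpn6 in DHT-treated mice lies between 5.95 and 12.4 CPM, above the void range of 3.65 to 4.28, while the Sirpa ranges overlap between 388 and 413 CPM and the void mice split widely for Cd300lf.

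Ptpn6 (ENSMUSG00000004266) had the steadiest control level of the group that passed. It was at 3.83, 3.93, 4.28, 3.65 and 3.74 CPM in void replicates 4, 5, 9, 10 and 11. In DHT replicates 1, 2, 3, 5 and 6 it was at 12.4, 5.95, 9.24, 9.16 and 8.69 CPM. The groups did not overlap, and DHT replicate 2 was the treated mouse nearest to the controls. The means were 3.89 ± 0.243 and 9.09 ± 2.30 CPM (SD, n = 5), a log2 fold change of 1.22 with a standard error (SE) of 0.16 (adjusted p = 0.0067, edgeR). By unadjusted p, Ptpn6 stood at rank 11 of the 17622 genes tested. It passed without any 1 of the 10 mice, with adjusted p from 0.000584 to 0.0282. On log2 CPM alone, a two-sided exact permutation test gave p = 0.00794, the smallest that 5 against 5 mice allow. An antisense gene that shares exon bases with Ptpn6, and another that does so with Cd22, were at most 0.0419 CPM in any mouse.

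Ptpn6 was compared with every other tested gene by the root mean square distance of log2 CPM, centred on each gene's mean over the 10 mice. The 5 nearest genes were Fcgr1, Irf8, Renbp, Ctsh and Hcls1, at distances of 0.13 to 0.16. Fcgr1 encodes the high-affinity IgG receptor, Irf8 a transcription factor of microglia and other myeloid cells, Ctsh a lysosomal cathepsin and Hcls1 an actin regulator of blood cells. Their log2 fold changes were between 0.97 and 1.18. The distance includes the difference between groups, so fold changes near that of Ptpn6 follow from the choice. Among the receptors described here, Lair1 was closest to Ptpn6 (distance 0.32) and Cd300lf was farthest (1.05).

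Of the 3 Siglecs, Cd22 and Cd33 were higher with DHT. CD22 is best known as a brake on the B cell receptor and has been described on aged microglia. Cd22 (ENSMUSG00000030577) was at 0.127, 0.575, 0.155, 0.664 and 0.240 CPM in void replicates 4, 5, 9, 10 and 11, which are 5 to 18 counts per library. With DHT it was at 3.42, 0.987, 2.85, 1.92 and 1.73 CPM in replicates 1, 2, 3, 5 and 6, or 40 to 136 counts. Every treated mouse was above every control, again with replicate 2 the lowest. Its log2 fold change of 2.69 (SE 0.46, adjusted p = 0.00965, edgeR) was the largest of the 10.

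Markers of B cells were therefore read beside Cd22. Ms4a1, which encodes CD20, was at most 0.0320 CPM with void and at 0 with DHT. Fcmr, the receptor for IgM, was at 0 to 0.106 CPM with void and 0.222 to 0.437 CPM with DHT, without overlap, and was too low to be tested. Of the 12 B cell markers, 5 could be tested and 0 passed, with a median log2 fold change of 0.66. The sum of the 12 spanned 15.8 to 24.2 CPM with void and 20.3 to 50.5 CPM with DHT. The 2 highest sums were in DHT replicates 3 and 1, where Igkc, an immunoglobulin light chain of plasma cells and B cells, was also highest. Igkc was at most 0.389 CPM with void and reached 9.49 CPM with DHT (log2 fold change 3.58, adjusted p = 0.0533, edgeR). These replicates were the 2 highest for Cd22 too, but not for Cd22 alone. They were also the 2 highest treated mice for Ptpn6, Cd33, Lilrb4a, Pilra and Cd72, though not for Siglece, Lair1, Sirpa or Cd300lf. On the mean log2 CPM of the microglia reference described below they again stood highest (5.62 and 5.28), with DHT replicate 5 close behind (5.26). Cd22 passed with each mouse left out in turn (adjusted p at most 0.0374), but not with both of these left out (log2 fold change 2.15, adjusted p = 0.0792, edgeR). That fit called 0.348% of all genes higher, against 5.22% with all mice. The 2 mice were chosen after the data were seen and were highest for Cd22 itself, so a smaller difference follows from leaving them out. The part of B cells and plasma cells in the Cd22 difference was not tested.

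CD33 is a Siglec of myeloid cells whose human gene lies at an Alzheimer's disease risk locus. Cd33 (ENSMUSG00000004609) was at 10.4, 13.3, 8.75, 13.3 and 10.9 CPM in void replicates 4, 5, 9, 10 and 11, and at 22.2, 14.4, 18.6, 15.4 and 15.1 CPM in DHT replicates 1, 2, 3, 5 and 6. The groups were separate, but by about 1 CPM between void replicate 10 and DHT replicate 2. The log2 fold change of Cd33 was 0.60 (SE 0.15, adjusted p = 0.0354, edgeR). The call was lost without void replicate 4, 9 or 11 or DHT replicate 1, 3 or 5, where the adjusted p lay between 0.0552 and 0.119.

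Siglec-E is regarded as the mouse counterpart of several human inhibitory Siglecs and is found on microglia and neutrophils. Siglece (ENSMUSG00000030474) ranged from 0.589 to 0.849 CPM with void and from 0.864 to 1.07 CPM with DHT. The groups did not overlap, by a margin of about 0.015 CPM, and the two-sided exact permutation p was 0.00794. Its log2 fold change of 0.34 (SE 0.16) did not pass in the fit over all genes (edgeR, adjusted p = 0.303). Libraries held 19 to 44 counts of Siglece.

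Among the other receptors with immunoglobulin domains, Lilrb4a had the largest fold change. LILRB4 proteins bind fibronectin and restrain myeloid activation. Lilrb4a (ENSMUSG00000112148) was at 0.106, 0.224, 0.124, 0.258 and 0.180 CPM in void replicates 4, 5, 9, 10 and 11, and at 0.929, 0.493, 1.36, 0.479 and 0.476 CPM in DHT replicates 1, 2, 3, 5 and 6. All treated mice were above the controls, with replicates 3 and 1 highest. The log2 fold change was 2.12 (SE 0.40, adjusted p = 0.0121, edgeR). The control counts were 4 to 7 per library, under the level the filter asks for, so Lilrb4a entered the test through its DHT libraries only. Reads of Lilrb4a are also uncertain because Lilr4b, an activating relative, is 96% identical over 907 aligned coding bases, and 4.53% of the 906 windows of 100 bases in the coding sequence are exactly shared. Gm49339, a gene model on the same strand that shares 1846 exon bases with Lilrb4a, was listed at 0 in every mouse. Lilr4b itself was at 0.0300 to 0.184 CPM with void and 0.0987 to 0.479 CPM with DHT and was too low to be tested.

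LAIR1 binds collagens and C1q. Lair1 (ENSMUSG00000055541) was at 10.1, 13.6, 11.1, 12.6 and 11.7 CPM in void replicates 4, 5, 9, 10 and 11, and at 25.5, 14.6, 17.8, 18.7 and 15.8 CPM in DHT replicates 1, 2, 3, 5 and 6. The log2 fold change was 0.64 (SE 0.14, adjusted p = 0.0229, edgeR), with no overlap between groups. Without void replicate 4 or 11, or DHT replicate 3 or 5, it did not pass (adjusted p 0.0552 to 0.0784).

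PILRA binds sialylated glycoproteins and, like CD33, has a human gene at an Alzheimer's disease risk locus. Pilra (ENSMUSG00000046245) spanned 0.256 to 0.406 CPM with void and 0.417 to 0.956 CPM with DHT. It had a log2 fold change of 0.91 (SE 0.26) and an adjusted p of 0.0633 (edgeR), falling to 0.0484 without DHT replicate 6. The activating partners of Pilra, Pilrb1 and Pilrb2, were at most 0.0310 and 0.0820 CPM in any mouse. The gene shares 468 exon bases with Zcwpw1 on the opposite strand, at up to 7.08 CPM, and the handling of strand in counting is not given in the sources used here.

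SIRPA, the receptor for the CD47 "do not eat me" signal, is abundant on neurons as well as on myeloid cells. Sirpa (ENSMUSG00000037902) was at 388 to 414 CPM with void and 358 to 413 CPM with DHT. Its groups overlapped, and the log2 fold change was −0.05 (SE 0.05, adjusted p = 0.701, edgeR). Each library held at least 10819 counts of Sirpa.

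CD300LF binds phosphatidylserine on dying cells. Cd300lf (ENSMUSG00000047798) was the least even of the receptors among controls. Void replicates 4, 5, 9, 10 and 11 were at 1.63, 0.128, 1.86, 0.221 and 0.719 CPM, and DHT replicates 1, 2, 3, 5 and 6 at 3.66, 1.73, 0.880, 2.45 and 2.08 CPM. Only 3 of the 5 treated mice exceeded the highest control. The fitted log2 fold change was 1.19 (SE 0.57, adjusted p = 0.31, edgeR), and it became −0.28 with the choroid plexus covariate. The summed choroid plexus markers of void replicates 4, 5, 9, 10 and 11 were 913, 113, 1837, 439 and 118 CPM. Replicates 9 and 4 were thus highest for both and replicate 5 lowest for both, while replicate 11 had more Cd300lf than replicate 10 with fewer choroid plexus counts. DHT replicate 3, the lowest treated mouse for Cd300lf, had 2099 summed CPM. The part of choroid plexus tissue in Cd300lf was not tested beyond the covariate.

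CD72 is a type II protein with a C-type lectin-like domain that binds SEMA4D and is known from B cells. Cd72 (ENSMUSG00000028459) was at 0.507, 0.543, 0.155, 0.332 and 0.599 CPM in void replicates 4, 5, 9, 10 and 11, and at 1.45, 0.740, 2.56, 1.32 and 1.40 CPM in DHT replicates 1, 2, 3, 5 and 6. The groups did not overlap. Its log2 fold change was 1.79 (SE 0.37, adjusted p = 0.0164, edgeR), and the adjusted p was at most 0.0464 with each mouse left out in turn. Cd72 shares 1423 exon bases with Tesk1, a kinase gene on the opposite strand at up to 93.1 CPM. Tesk1 itself had a log2 fold change of 0.02 (edgeR, adjusted p = 0.964).

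Across the 10 genes, DHT replicate 1 had the highest treated value for 7 and DHT replicate 2 the lowest for 6. These mice were also at the ends of the microglia reference described next, with 941 and 669 summed CPM.

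**Figure D3:**
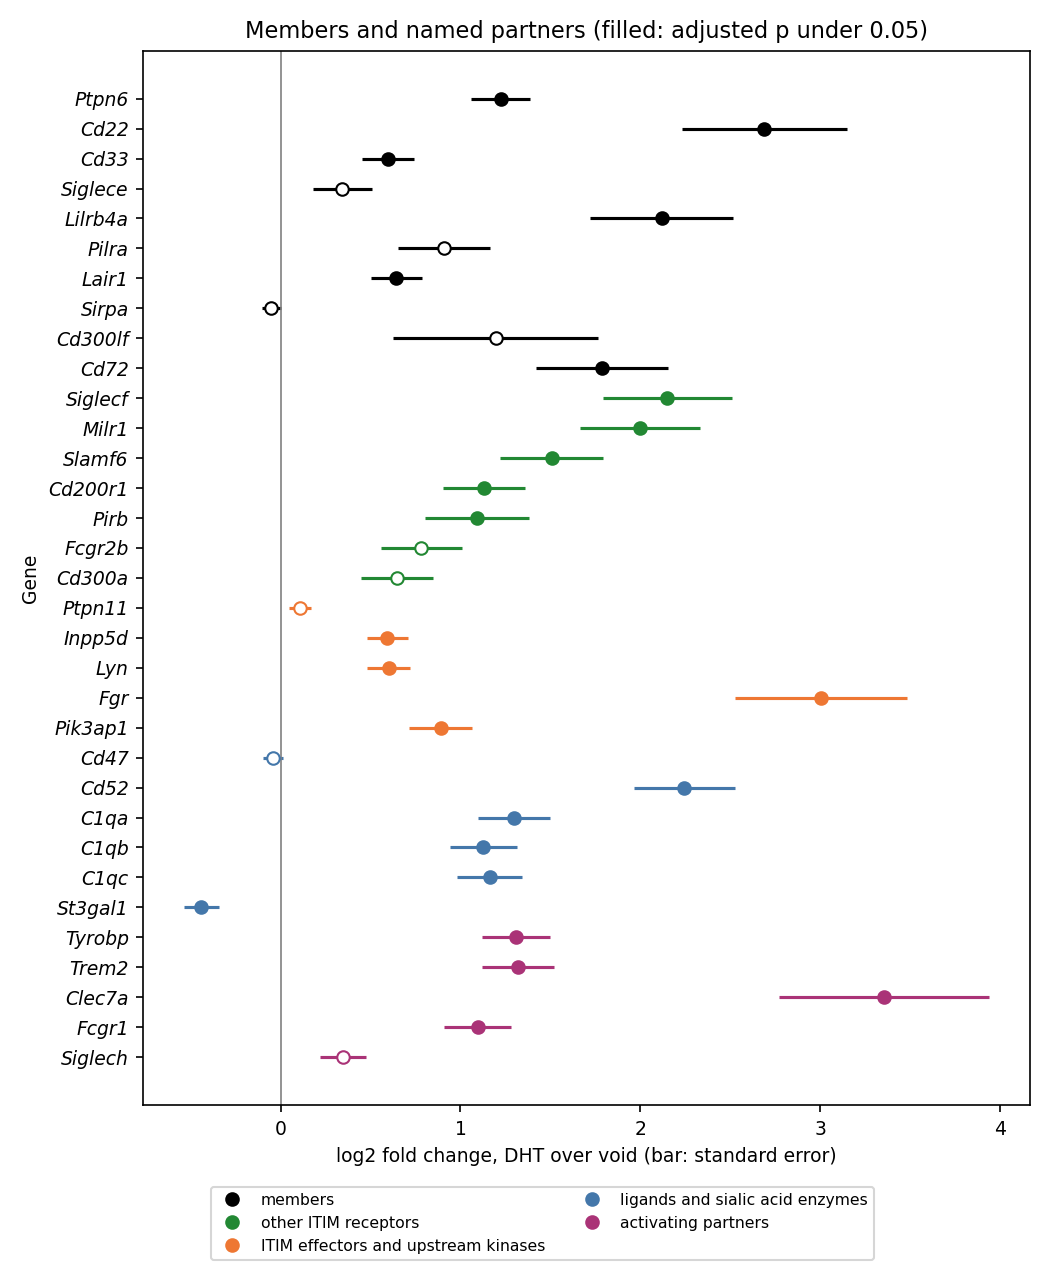
log2 fold change of DHT over void (x, bars show the standard error) for the 10 genes in black and for named partners by list in color, with filled points for an adjusted p under 0.05. Cd22 and Lilrb4a are beyond 2, Sirpa, Ptpn11 and Cd47 lie near 0, and St3gal1 is the only point below 0 that passed.

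Hippocampal RNA from DHT-treated mice held more of several microglial transcripts. A reference of 12 microglial genes, among them Cx3cr1, P2ry12 and Csf1r, had a mean log2 CPM of 4.84 ± 0.0969 with void and 5.31 ± 0.184 with DHT (SD, n = 5). On that mean all treated mice were above all controls, and 5 of the 12 passed the test singly. Single log2 fold changes ran from 0.16 for P2ry12, which did not pass (adjusted p = 0.479, edgeR), to 0.86 for Aif1. Each gene's log2 CPM was therefore also compared after subtracting this reference in the same mouse. On that scale 4 of the 10 genes were higher with DHT and 1 was lower (limma, adjusted p under 0.05), against 3.09% and 65.2% of all genes tested. The median of all genes was −0.46 on that scale.

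Relative to the reference, Cd22 was higher by 2.10 (SE 0.37), Lilrb4a by 1.24 (0.26), Cd72 by 1.22 (0.33) and Ptpn6 by 0.71 (0.14) in log2 units. The adjusted p was 0.00966 for Cd22, Lilrb4a and Ptpn6 and 0.0109 for Cd72 (limma). Ptpn6 was at −2.82, −2.83, −2.67, −3.12 and −2.89 in void replicates 4, 5, 9, 10 and 11 and at −1.98, −2.56, −2.07, −2.06 and −2.10 in DHT replicates 1, 2, 3, 5 and 6, without overlap. Cd33 and Lair1, which had passed before, differed by 0.13 (SE 0.13, adjusted p = 0.366) and 0.16 (SE 0.12, adjusted p = 0.239). Siglece differed by −0.14, Pilra by 0.32 and Cd300lf by 1.14, and none of these passed. Pilra passed without DHT replicate 6 (adjusted p = 0.0271), and Cd300lf passed without void replicate 4 (0.0494) or 9 (0.0369). Sirpa was lower by 0.52 (SE 0.12, adjusted p = 0.00966, limma), close to the median of all genes on this scale.

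**Figure D4:**
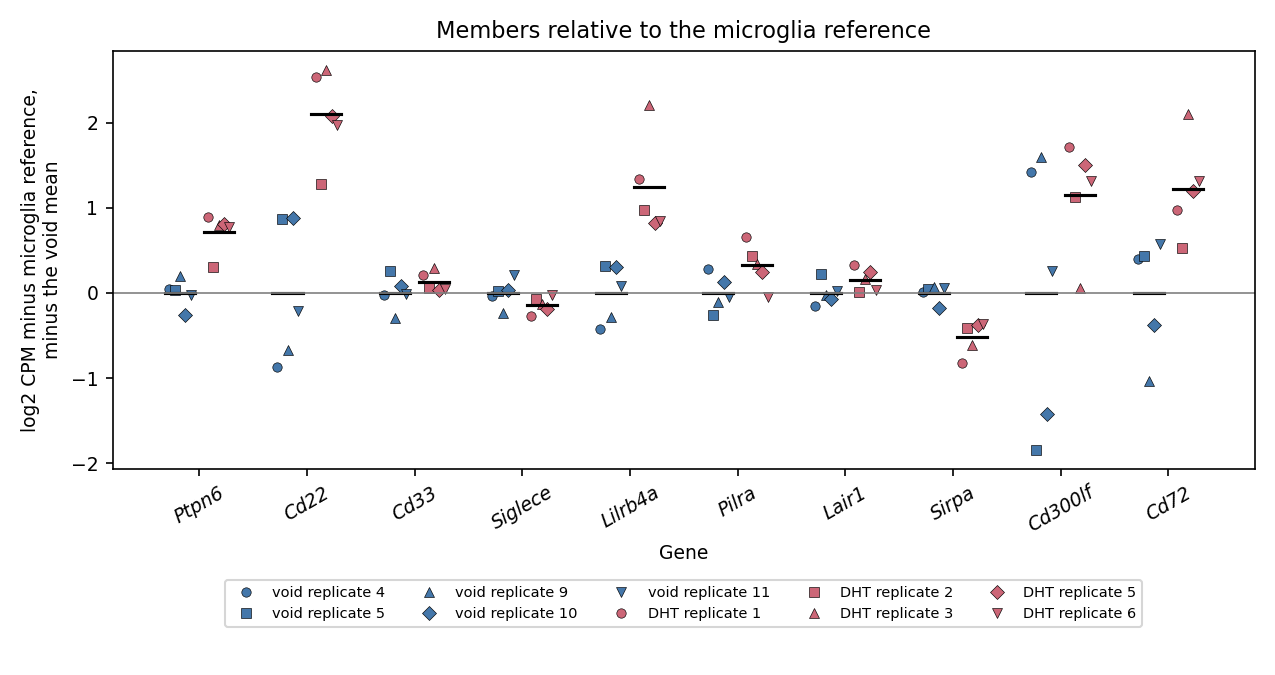
log2 CPM of each gene minus the mean of the microglia reference in the same mouse, shown as the difference from the void mean (y) for the 10 genes (x), with void-treated mice in blue, DHT-treated mice in red and a bar at each group mean. The treated mice lie above the controls for Ptpn6, Cd22 and Lilrb4a and below them for Sirpa, and the groups overlap for Cd33, Siglece, Pilra, Lair1, Cd300lf and Cd72.

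Levels were compared between genes per length, as CPM divided by kilobases of exon in GENCODE M21. In void-treated mice Sirpa was at 82.1 ± 2.04 (SD, n = 5) and each of the other genes was under 2. Lair1 (1.58 ± 0.178), Cd33 (1.46 ± 0.252) and Ptpn6 (1.39 ± 0.0867) followed with overlapping ranges. Siglece was at 0.399 ± 0.0594. Below it Cd300lf, Cd72, Pilra and Cd22 were between 0.0699 and 0.177 and overlapped with their neighbours in the order, and Lilrb4a was lowest at 0.0341 ± 0.0123, beside Cd22, which it overlapped. In DHT-treated mice Sirpa was still first (79.2 ± 4.67), Ptpn6 was second (3.25 ± 0.822), and Cd22 was at 0.432 ± 0.190. The range of Ptpn6 in these mice (2.12 to 4.44) overlapped those of Lair1 (1.95 to 3.41) and Cd33 (1.85 to 2.85).

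The other ITIM receptors formed a list of 30 genes, 28 of which had a row and 12 of which could be tested. The list was drawn up by gene name and not by a motif search. Of these, 5 were higher with DHT and 0 lower, against 5.22% and 0.261% of all genes, and their median log2 fold change was 0.79. Siglecf encodes a Siglec known from eosinophils and activated microglia. It had a log2 fold change of 2.15 (SE 0.36, adjusted p = 0.009, edgeR), from 0.539 to 1.29 CPM with void to 1.46 to 5.66 CPM with DHT. The motif search found 2 runs in Siglecf. Milr1, an inhibitory receptor of mast cells in which that search found 0 runs, had a log2 fold change of 1.997, and Slamf6, a SLAM family receptor, had 1.51. Cd200r1, which reads CD200 on neurons and is known to signal through Dok proteins without an ITIM, had 1.13, and Pirb, a receptor for MHC class I, had 1.09 with an adjusted p of 0.0494 (edgeR).

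Fcgr2b, the inhibitory receptor for IgG, did not pass at a log2 fold change of 0.78 (adjusted p = 0.0707), nor did Cd300a at 0.65 (adjusted p = 0.089, edgeR). DESeq2 called both, with adjusted p of 0.0160 and 0.0472. A listed gene could enter the test through its DHT libraries alone, so the 12 are not an even sample of the list. Of the 16 with too few counts, Siglecg, a Siglec of B cells, was at most 0.106 CPM in any mouse. Pdcd1, the T cell receptor PD-1, was picked out after its values were seen, at 0.0211 to 0.192 CPM with void and 0.271 to 1.24 CPM with DHT. The count of 5 became 3 without DHT replicate 1 or 3 and 8 without DHT replicate 2.

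Downstream and upstream of the motif, 7 of 20 tested effectors and kinases were higher and 0 lower, against 5.22% and 0.261% of all genes. The median log2 fold change of the list was 0.19, and again a gene could enter the test through its DHT libraries alone. Fgr and Lyn are Src family kinases of myeloid cells that phosphorylate ITIMs. Fgr rose from 0.211 ± 0.147 to 1.65 ± 0.741 CPM (SD, n = 5), a log2 fold change of 3.003 (SE 0.48, adjusted p = 0.00761, edgeR). Its void libraries spanned 0.0931 to 0.447 CPM, 34 counts in all, so Fgr needed its DHT libraries to be tested. Lyn had a log2 fold change of 0.60. Inpp5d, which encodes the lipid phosphatase SHIP1 and is another human risk gene for Alzheimer's disease, went from 15.4 ± 0.725 to 23.3 ± 4.47 CPM (SD, n = 5), a log2 fold change of 0.59 (adjusted p = 0.013, edgeR). Pik3ap1, an adaptor for PI3 kinase, had 0.89. Ptprc (CD45) at 1.25 and Dok1 at 0.93 also passed, and both are named after their values were seen.

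Ptpn11, which encodes SHP-2, the broadly expressed relative of SHP-1, was at 193 to 224 CPM with void and 211 to 238 CPM with DHT. Its log2 fold change was 0.11 (SE 0.06, adjusted p = 0.423, edgeR). The kinases Fyn and Src, abundant in neurons, were at 0.02 and −0.05 and did not pass, and these 2 were also named after their values were seen. Without void replicate 11, 2 of the list passed in place of 7.

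Ligands and enzymes of sialic acid gave 5 higher and 1 lower of 30 tested, against 5.22% and 0.261% of all genes. The higher ones were Cd52 (log2 fold change 2.24), a small sialylated glycoprotein of leukocytes that binds Siglecs, the 3 chains of C1q (C1qa 1.296, C1qb 1.13 and C1qc 1.16), which bind LAIR1 and CD33, and Clu at 0.45, chosen after its value was seen. C1qa was at 36.8 ± 10.2 CPM with void and 90.1 ± 20.2 CPM with DHT (SD, n = 5), with an adjusted p of 0.00761 (edgeR). St3gal1, a sialyltransferase that caps O-linked glycans, was lower, at 36.2 ± 3.31 CPM with void and 26.7 ± 3.66 CPM with DHT (SD, n = 5). Its log2 fold change was −0.44 (SE 0.10, adjusted p = 0.0232, edgeR), and every treated mouse lay below every control. Cd47, the ligand of SIRPA, was at 273 to 299 CPM with void and 253 to 296 CPM with DHT and did not pass (log2 fold change −0.04, adjusted p = 0.797, edgeR). The median log2 fold change over the 30 genes was 0.02, near the 0.01 of all genes tested.

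Of 13 tested activating partners, 8 were higher and 0 lower, against 5.22% and 0.261% of all genes. The median log2 fold change of the list was 1.10, and here too a gene could enter the test through its DHT libraries alone. Tyrobp, the DAP12 adaptor, had a log2 fold change of 1.31 and Trem2 of 1.32, beside the 1.22 of Ptpn6. Clec7a (Dectin-1), a receptor for beta-glucans, rose most, by 3.36 (SE 0.58, adjusted p = 0.0099, edgeR), and Fcgr1 had 1.10. Siglech, a microglial Siglec without an ITIM that pairs with DAP12, did not pass (log2 fold change 0.35, adjusted p = 0.165, edgeR). The count was 5 without void replicate 4 or 11 or DHT replicate 1, and 11 without DHT replicate 2.

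Markers of other cell types that use ITIM receptors were read in the same mice. In the list of 12 genes of monocytes and neutrophils, 3 could be tested and 1 was higher, Csf3r, which microglia also express. The sum of the list spanned 6.74 to 10.7 CPM with void and 10.98 to 18.2 CPM with DHT. Most of it was Csf3r, at 5.42 to 8.60 CPM with void and 9.33 to 15.8 CPM with DHT. In every mouse 10 of the 12 genes were under 1 CPM. The neutrophil genes S100a8, S100a9 and Ly6g were at most 0.295, 0.410 and 0.0298 CPM. The sum over 12 genes of T and NK cells lay between 2.32 and 3.52 CPM with void and 3.26 and 4.55 CPM with DHT, with 0 of 3 tested genes passing. Cd3g and Nkg7, too low to be tested and named after their values were seen, were higher in every treated mouse than in every control. They were at 0.0987 to 0.273 CPM and 0.0987 to 0.126 CPM with DHT against at most 0.0899 and 0.0634 CPM with void. Over all mice they held 37 and 27 counts. Cd3d and Lck also did not overlap, and the rest of the list did. Trac had a log2 fold change of −0.01 (adjusted p = 0.99, edgeR), and Trbc2 reached 0.799 CPM with void and 0.419 CPM with DHT. The 10 genes of border macrophages summed to 11.5 to 31.7 CPM with void and 16.6 to 31.1 CPM with DHT, and 0 of 9 passed. The part of these cells in the differences was not tested. Sums over neuronal genes (9929 to 11958 CPM over all mice) and over hippocampal genes (2031 to 2720 CPM) overlapped between groups, and 0 of these 22 genes passed.

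**Figure D5:**
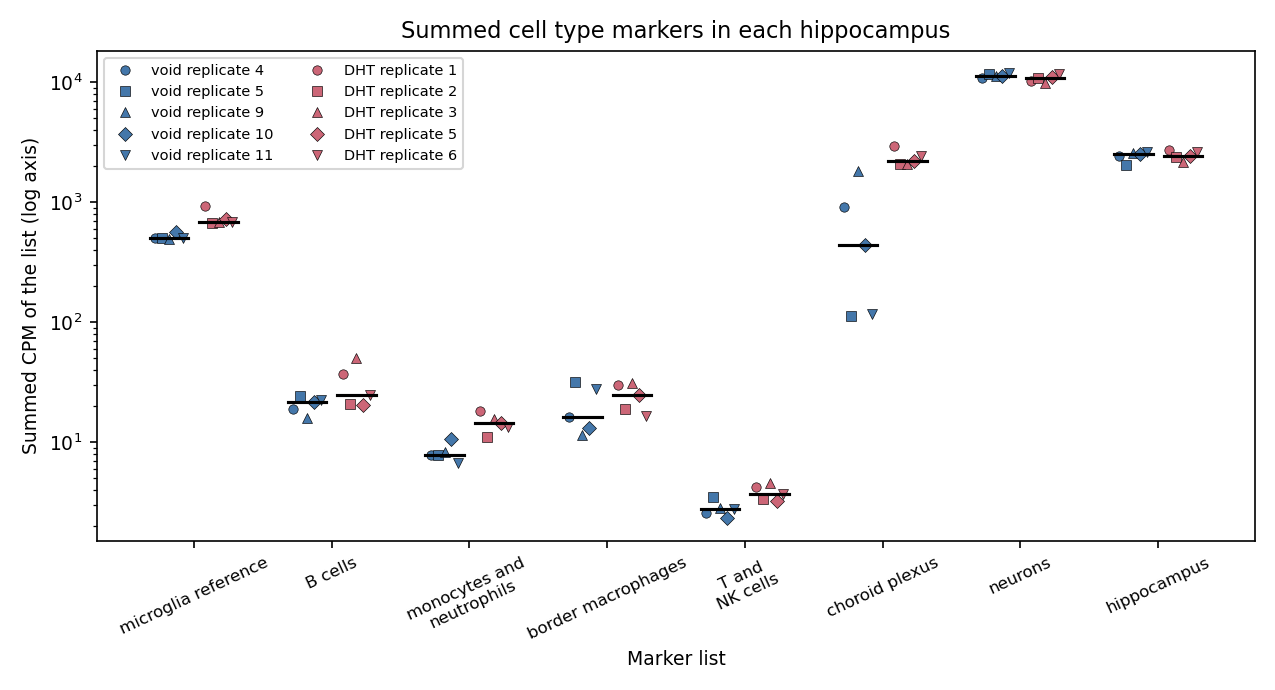
Summed CPM on a log axis (y) of 8 marker lists (x) in each mouse, void-treated in blue and DHT-treated in red, with a bar at the group median. The treated mice lie above the controls for the microglia reference, for monocytes and neutrophils and for choroid plexus, and the groups overlap for the other 5 lists. Most of the monocyte and neutrophil sum is Csf3r, which microglia also express.

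Promoter sequence was read for the genes above from RefSeq (GRCm38.p6), as 250 bases before to 50 after the start, and 8 of the 10 genes had an entry. A pair of 6-base words that belong to the binding site of PU.1, the myeloid master regulator, were searched on both strands, GAGGAA and GGAAGT, which overlap by GGAA in the longer word GAGGAAGT. They are in capitals below, also where they read as their complement, for the gene with the lowest p, a gene with both words apart, and a gene with the joined word.
Ptpn6, chr6:124738660-124738959, minus strand: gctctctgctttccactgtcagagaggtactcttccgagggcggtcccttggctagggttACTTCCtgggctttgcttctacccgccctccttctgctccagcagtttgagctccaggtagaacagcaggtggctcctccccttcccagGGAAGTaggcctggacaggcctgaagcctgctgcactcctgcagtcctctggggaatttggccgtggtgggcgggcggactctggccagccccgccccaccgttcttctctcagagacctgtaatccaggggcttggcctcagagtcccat
Cd33, chr7:43533122-43533421, minus strand: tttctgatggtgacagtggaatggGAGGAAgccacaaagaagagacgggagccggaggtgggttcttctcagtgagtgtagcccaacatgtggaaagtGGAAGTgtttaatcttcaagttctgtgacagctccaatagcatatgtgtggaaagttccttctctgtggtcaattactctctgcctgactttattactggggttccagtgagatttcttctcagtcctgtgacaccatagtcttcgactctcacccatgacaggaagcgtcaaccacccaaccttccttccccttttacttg
Cd72, chr4:43454577-43454876, minus strand: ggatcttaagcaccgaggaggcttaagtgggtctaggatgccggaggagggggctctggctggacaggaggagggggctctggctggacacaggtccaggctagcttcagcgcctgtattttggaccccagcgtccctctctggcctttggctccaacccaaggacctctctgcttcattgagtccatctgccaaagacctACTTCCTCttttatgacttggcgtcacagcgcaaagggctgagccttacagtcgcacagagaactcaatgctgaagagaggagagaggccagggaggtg

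GAGGAA stood in 6 of the 8 promoters (Cd300lf, Cd33, Cd72, Lair1, Pilra and Siglece) and in 28.3% of all 32851 mouse promoters of that length. GGAAGT stood in 5 of 8 (Cd300lf, Cd33, Cd72, Pilra and Ptpn6) and in 23.8% of all. The joined word stood in Cd72 and Cd300lf and in 3.2% of all. Cd22, with the largest fold change, held neither. AGGTCA, a word shared by the sites of many nuclear receptors including TR4, was in 0 of the 8 and in 16.3% of all promoters. These matches describe the letters in the windows and not bound sites.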

How the data were processed

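Hippocampal mRNA libraries were made from 10 mice, 1 library each. The authors trimmed reads with HTStream, aligned them with STAR 2.7.10b and deposited raw counts per gene. The methods name mm10 and the submitters' processing notes mm39 (GRCm39), and most identifiers carry later versions than GENCODE M21, which was used for symbols, exon lengths and coding sequences only. Groups came from the sample titles.

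Counts were fitted over all genes in R 4.3.3 with edgeR 4.0.16 (TMM, expression filter by group, quasi-likelihood test, Benjamini-Hochberg adjustment). DESeq2 1.42.0, the tool the study used, and limma-voom (limma 3.58.1) were alternatives, with other scalings and filters, a choroid plexus covariate and each mouse left out. A fit without both DHT replicates 1 and 3 was added after the data were seen. Relative levels were fitted with limma on log2 CPM with a prior count of 2. On simulated data of 17622 genes, edgeR recovered 92% of genes changed by 1 log2 unit and 100% of those changed by 2. Of the genes called there at adjusted p under 0.05, 4.48% with edgeR and 9.62% with DESeq2 had not been changed. The simulation gave every gene the same assumed dispersion between mice and no choroid plexus variation. Those shares check the fits and are not the power or the share of false calls for the real genes.

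The genes and lists were chosen with earlier results of these data known. Beyond the 10 genes, those named are up to 4 per direction with the lowest adjusted p from each list, anchors fixed by name, and the 5 genes nearest to Ptpn6. Single values of a few listed genes are not reported here.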

Additional observations from a re-analysis of the deposited data

Results flagged for a closer look

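Single mice were screened in each group of 5 for each of the 10 genes by Dixon's test on CPM, which made 20 groups. The gap of the highest or lowest mouse to its neighbour exceeded 0.71 of the group's range in 0 of them, where chance would give about 1.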

How the results depend on the processing

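The count of 6 higher genes was 4 to 7 when each mouse was left out, the stricter count of 4 was 4 to 5, and the median log2 fold change of 1.05 was 0.77 to 1.11, lowest without DHT replicate 1. With at least 10 counts required in every library, only 5 of the 10 genes could be tested, of which 3 were higher, 1 of them beyond a log2 fold change of 1, with a median of 0.60. With the choroid plexus covariate both counts were 0, as were those of all 4 lists, the median was 0.77 and Cd300lf turned to −0.28. The choroid plexus sums of the groups did not overlap. With DHT replicates 1 and 3, the mice with the highest B cell marker sums, left out together (added after the data were seen), the counts were 1 and 0, and those of the lists were 0 for other ITIM receptors, 0 for effectors, 3 for ligands and enzymes and 1 for activating partners, while 62 of all genes were higher in place of 920. Among other ITIM receptors, 8 were higher with DESeq2 and 2 with at least 10 counts in every library. With each mouse left out, the counts were 3 to 8 for other ITIM receptors, 2 to 7 for effectors, 4 to 6 for ligands and enzymes and 5 to 11 for activating partners. The count relative to the microglia reference was 4 to 5. Over all genes, DESeq2 called 224 lower in place of 46. No paired analysis was made, because the sample titles give no pairing of void-treated with DHT-treated mice. The paper says that littermates were randomized to treatment, but the titles name no litter. It also says that mice were housed with others of their treatment group, so cage cannot be told apart from treatment. Genes at under 10 counts in a control library, such as Cd22 and Lilrb4a, carry the least certain fold changes.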
